A study of Mus musculus with 3 samples.

Results

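Eicosanoids are signalling lipids that cells make from arachidonic acid. The genes described are 8 that encode enzymes or an enzyme partner of the prostaglandin and leukotriene branches: Ptgs1, Ptgs2, Hpgds and Hpgd of the first, and Alox5, Alox5ap, Ltc4s and Lta4h of the second. The list is given by name, with no measured value in its rule, but it was drawn up with earlier results of these data known. All 8 are among the 20586 genes of the deposited table. CD45 marks leukocytes, microglia included, and CD45+ cells were sorted from the thalamus of mice 4 hours after an intracerebroventricular injection. Their transcripts were counted by droplet single-cell sequencing as unique molecular identifiers (UMIs).

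Each of 3 groups is 1 library. Mice of the cKO IL-33 group carried 1 Cx3cr1-creER allele and were homozygous for ST2 flox, and received IL-33, an alarmin cytokine whose receptor chain ST2 is encoded by Il1rl1. WT IL-33 came from Cx3cr1-creER heterozygotes with no floxed allele named, also given IL-33. WT vehicle came from Cx3cr1-creER heterozygotes given vehicle. All 3 groups thus carried the recombinase, which the Cx3cr1 gene drives in microglia and related macrophages and which acts only with an inducing drug. The sources used here do not give the induction, the age and number of the animals or any pooling, and a vehicle library with the floxed alleles was not analysed here. No difference below has a replicate check or a test: every interval is a 95% interval that covers counting error only.

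In outline, the pathway starts when phospholipases and other lipases free arachidonic acid from membrane lipids. The cyclooxygenases turn it into prostaglandin H2, from which separate synthases make prostaglandins D2, E2 and F2 alpha and thromboxane. On the other branch, 5-lipoxygenase makes leukotriene A4, which becomes either leukotriene B4 or leukotriene C4. In the brain, microglia are known for high expression of the constitutive cyclooxygenase and of hematopoietic prostaglandin D synthase.

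Library sizes were 2687 cells and 17480958 UMIs in cKO IL-33, 2202 cells and 12127214 UMIs in WT IL-33, and 2709 cells and 18269042 UMIs in WT vehicle. The median cell held 5119 UMIs in cKO IL-33, 3951 in WT IL-33 and 5544 in WT vehicle. At least 3 of 8 microglial markers were seen in 7594 of the 7598 cells (99.9%), so all cells of a library were summed. Levels are in CPM, a gene's UMIs over all UMIs of the cells summed, times 1000000. Mitochondrial genes took a median of 2.43% of a cell's UMIs in cKO IL-33, 2.27% in WT IL-33 and 2.99% in WT vehicle, and ribosomal protein genes 12.8% in cKO IL-33, 10.6% in WT IL-33 and 15.02% in WT vehicle. The summed level of those 8 markers was itself 23336 CPM in cKO IL-33, 14937 CPM in WT IL-33 and 21913 CPM in WT vehicle, lowest in WT IL-33 as for most members. Among the markers, Cx3cr1 went the other way, at 2822 CPM in cKO IL-33, 3118 CPM in WT IL-33 and 2593 CPM in WT vehicle. Each of the others was lowest in WT IL-33, by differing amounts. By the deposited sex calls, cKO IL-33 held 2648 female and 39 male cells, WT IL-33 1107 female and 1095 male, and WT vehicle 8 female and 2701 male. Cells with UMIs of both Xist and a Y-linked gene numbered 3 in cKO IL-33, 305 in WT IL-33 and 7 in WT vehicle. The cKO IL-33 library shared 1 cell barcode with each of the other two, and WT IL-33 shared 0 with WT vehicle. Il1rl1, the targeted gene, was at 12.8 CPM in cKO IL-33, 5.77 CPM in WT IL-33 and 11.6 CPM in WT vehicle. The tags come from the 3' end and the sources used here do not name the deleted exons, so these values check nothing about the genotype.

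Ptgs1 encodes cyclooxygenase-1, the constitutive form, and lies at chr2:36230426-36252272 on the plus strand (GRCm38, GENCODE annotation). Ptgs2 encodes cyclooxygenase-2, the inducible form, at chr1:150100031-150108227, plus strand. Hpgds encodes the glutathione-dependent synthase of prostaglandin D2, at chr6:65117293-65144908, minus strand. Hpgd encodes the dehydrogenase that inactivates prostaglandins, at chr8:56294585-56321043, plus strand. The 250 bases before the RefSeq start of each, on GRCm38.p6, are shown because of these 4 prostaglandin genes 3 were lowest in WT IL-33 and Ptgs2 was seen there alone. Capitals mark GAGGAA, the core letters of the PU.1 site of myeloid genes, read on either strand, and in Ptgs2 also GGGNNNNNCC, the outline of an NF-kB site. The windows are chr2:36230176-36230425 for Ptgs1, chr1:150099781-150100030 for Ptgs2, chr6:65144731-65144980 for Hpgds and chr8:56294302-56294551 for Hpgd, each written 5′ to 3′ on its gene's strand.
Ptgs1: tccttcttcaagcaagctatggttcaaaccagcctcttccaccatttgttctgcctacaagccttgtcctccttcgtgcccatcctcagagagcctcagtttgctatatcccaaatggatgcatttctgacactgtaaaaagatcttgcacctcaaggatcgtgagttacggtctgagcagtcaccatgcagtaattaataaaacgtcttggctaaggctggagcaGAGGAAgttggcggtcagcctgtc
Ptgs2: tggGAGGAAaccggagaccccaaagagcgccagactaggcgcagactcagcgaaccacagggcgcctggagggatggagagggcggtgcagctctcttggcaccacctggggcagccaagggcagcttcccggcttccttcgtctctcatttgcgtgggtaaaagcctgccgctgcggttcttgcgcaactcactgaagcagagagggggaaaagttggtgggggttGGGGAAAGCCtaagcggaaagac
Hpgds: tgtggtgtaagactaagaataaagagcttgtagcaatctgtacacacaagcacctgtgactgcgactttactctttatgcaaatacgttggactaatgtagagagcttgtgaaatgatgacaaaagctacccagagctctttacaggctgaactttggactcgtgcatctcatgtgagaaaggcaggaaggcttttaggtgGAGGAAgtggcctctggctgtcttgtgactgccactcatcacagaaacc
Hpgd: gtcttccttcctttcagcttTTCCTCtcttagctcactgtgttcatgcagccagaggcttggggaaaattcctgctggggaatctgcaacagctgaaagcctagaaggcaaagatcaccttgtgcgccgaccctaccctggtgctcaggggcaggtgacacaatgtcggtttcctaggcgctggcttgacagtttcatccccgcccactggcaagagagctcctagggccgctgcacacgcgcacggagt
Counted back from the start, GAGGAA lay at -24 to -19 in Ptgs1, -49 to -44 in Hpgds and -247 to -242 in Ptgs2, and its reverse complement at -230 to -225 in Hpgd. Over the 7 of 8 genes with a RefSeq window, GAGGAA on either strand was in 6, all but Ltc4s, against 23.3% of all 32851 windows. The letters GGGNNNNNCC lay at -23 to -14 in Ptgs2 and at 2 places in each of Alox5 and Lta4h, where 1 match overlaps GAGGAA. They occur in 45.8% of all windows. Of the other letters searched on both strands, TGANTCA (AP-1), TGACG (the CRE core) and TATAA were in 0 of the 7 windows, and in 6.75%, 17.8% and 22.8% of all windows. A match of letters is a description and not a binding site.

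Transcripts of the cyclooxygenase gene Ptgs1 and of the prostaglandin D2 synthase gene Hpgds were both at their lowest in WT IL-33. Ptgs1 was at 832 CPM (818 to 845) for cKO IL-33 and 259 CPM (249.9 to 268) for WT IL-33, against 779 CPM (766 to 792) for WT vehicle. WT IL-33 was thus the low library, 3.01-fold lower than WT vehicle (2.89 to 3.13), while cKO IL-33 was 3.21-fold higher than WT IL-33 (3.09 to 3.34). A Ptgs1 UMI was present in 95.3% of cKO IL-33 cells, 55.2% of WT IL-33 cells and 96.5% of the WT vehicle cells. Hpgds, the synthase that acts on the product of the cyclooxygenases, gave the same order of libraries. Its level was 726 CPM (713 to 738) for cKO IL-33 and 288 CPM (278 to 297) for WT IL-33, against 682 CPM (669.6 to 694) for WT vehicle. That is 2.37-fold lower in WT IL-33 than in WT vehicle (2.28 to 2.46) and 2.52-fold higher in cKO IL-33 than in WT IL-33 (2.43 to 2.62).

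Hpgd, whose product ends prostaglandin signalling, differed most of the 7 members seen in all libraries. It was at 295 CPM (287 to 303) for cKO IL-33 and 67.9 CPM (63.4 to 72.7) for WT IL-33, against 266 CPM (258 to 273) for WT vehicle. WT IL-33 was 3.91-fold lower than WT vehicle (3.63 to 4.22), and cKO IL-33 was 4.34-fold higher than WT IL-33 (4.03 to 4.68). Cells with an Hpgd UMI made up 72.1% of cKO IL-33, 21.7% of WT IL-33 and 70.8% of WT vehicle. Transcripts of a synthetic enzyme and of the enzyme that removes its products were therefore both low in the same library. As a share of the UMIs of Hpgd and Ptgs1 together, Hpgd made up 26.2% in cKO IL-33, 20.8% in WT IL-33 and 25.4% in WT vehicle.

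**Figure D1:**
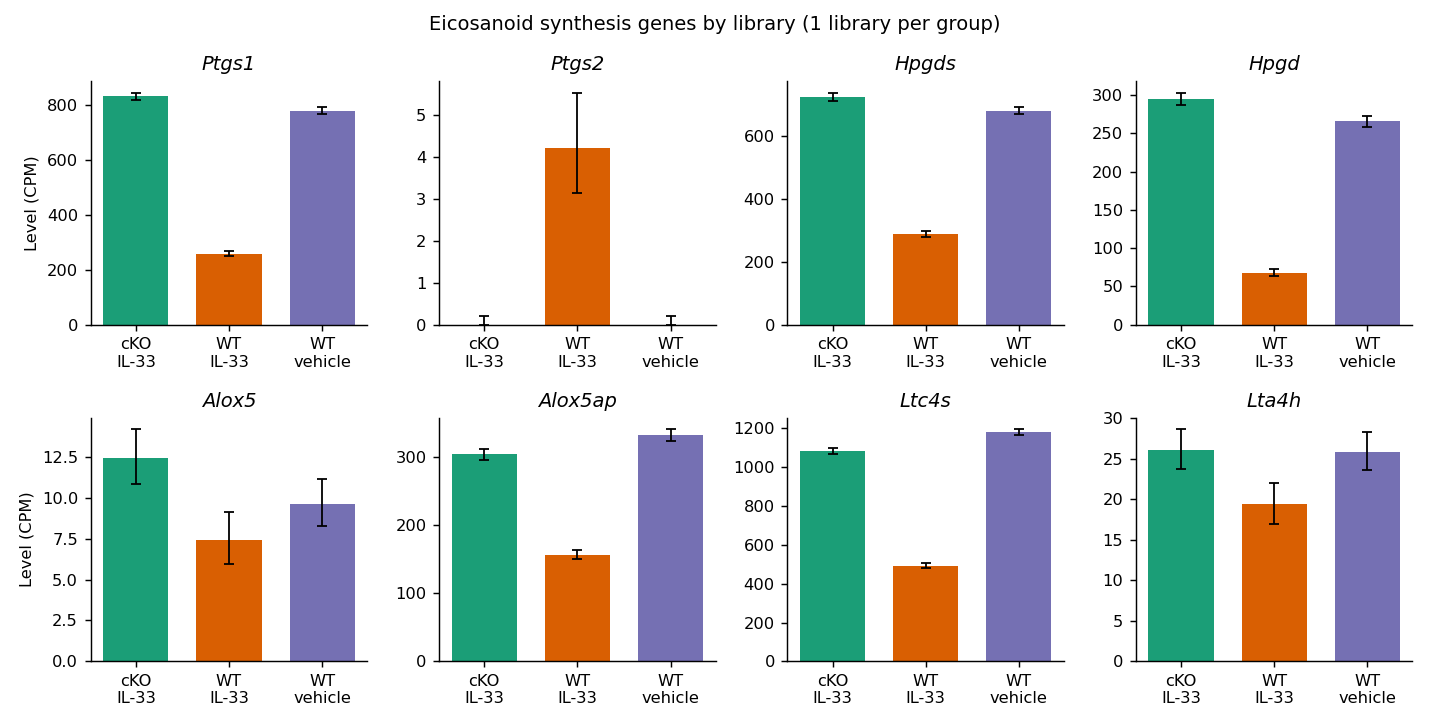
Levels of the 8 genes in CPM (y axes from 0, a scale for each gene) in cKO IL-33, WT IL-33 and WT vehicle, 1 library per group, with exact Poisson intervals as error bars. WT IL-33 is the lowest bar for every gene but Ptgs2, which has UMIs in that library alone.

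Ptgs2 ran the other way and was rare. It had 51 UMIs in WT IL-33 (4.21 CPM, 3.13 to 5.53) and 0 in both cKO IL-33 and WT vehicle. Set against a floor of 3 counts per library, WT IL-33 was at least 25.6-fold higher than WT vehicle, and cKO IL-33 at least 24.5-fold lower than WT IL-33. The UMIs came from 20 of 2202 WT IL-33 cells (0.908%, 0.556 to 1.40%), while 0 of 2687 cells allows a share of up to 0.112% in cKO IL-33, and 0 of 2709 cells one of up to 0.111% in WT vehicle, both at a floor of 3 cells (exact upper bounds 0.137% and 0.136%). Of the 20 cells, 14 held 1 UMI each, and the top 3 held 14, 8 and 7 UMIs, together 29 of the 51 (56.9%). The level of the library thus rests on few cells, a spread that the counting interval does not cover. Cells with Ptgs2 were deep, with a median of 6412 UMIs against 3951 over all WT IL-33 cells, and 17 of them lay in deposited cluster 1, 2 in cluster 5 and 1 in cluster 3. Ptgs1 UMIs were also present in 13 of the 20, and Ptges UMIs in 2 (10%, 1.23 to 31.7%), against Ptges in 9.90% of all WT IL-33 cells. By the deposited call, 15 of the 20 were male. Male-called WT IL-33 cells held 31 UMIs (6.51 CPM, 4.43 to 9.25) and female-called ones 20 (2.71 CPM, 1.66 to 4.19), of which 17 were in female-called cells with Y-linked UMIs and 3 in those without. In WT IL-33, Ptgs2 made up 1.60% of the UMIs of the 2 cyclooxygenase genes (1.19 to 2.10%), while Ptgs1 made up all 14540 in cKO IL-33 and all 14230 in WT vehicle.

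Alox5 encodes 5-lipoxygenase, the first enzyme of the leukotriene branch (chr6:116410077-116461178, minus strand), and lay near the 10 CPM minimum set below for counts of genes. Its UMIs numbered 217 in cKO IL-33, 90 in WT IL-33 and 176 in WT vehicle. On the CPM scale that is 12.4 (10.8 to 14.2) for cKO IL-33, 7.42 (5.97 to 9.12) for WT IL-33 and 9.63 (8.26 to 11.2) for WT vehicle. The intervals of WT IL-33 and WT vehicle overlap, at a difference of 1.30-fold lower in WT IL-33 (1.001 to 1.69), and cKO IL-33 was 1.67-fold higher than WT IL-33 (1.30 to 2.16). Alox5ap encodes the membrane protein that hands arachidonic acid to 5-lipoxygenase (chr5:149264767-149288153, plus strand). It was at 303 CPM (295 to 312) for cKO IL-33 and 157 CPM (149.5 to 164) for WT IL-33, against 331 CPM (323 to 339.8) for WT vehicle. WT IL-33 was again the low library, 2.12-fold lower than WT vehicle (2.01 to 2.23). The cKO IL-33 level was 1.94-fold above that of WT IL-33 (1.84 to 2.04), just under 2-fold.

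The next step has 2 outcomes, and their genes did not differ alike. Ltc4s encodes leukotriene C4 synthase, the enzyme that leads to the cysteinyl leukotrienes (chr11:50236461-50238616, minus strand). Its level was 1084 CPM (1069 to 1099.8) for cKO IL-33 and 494 CPM (481.5 to 507) for WT IL-33, against 1179.6 CPM (1164 to 1195) for WT vehicle. WT IL-33 was 2.39-fold lower than WT vehicle (2.32 to 2.46), and cKO IL-33 was 2.20-fold higher than WT IL-33 (2.13 to 2.26). Lta4h encodes leukotriene A4 hydrolase, which makes leukotriene B4 (chr10:93453411-93484875, plus strand). It was at 26.1 CPM (23.8 to 28.7) for cKO IL-33 and 19.4 CPM (17.0 to 22.0) for WT IL-33, against 25.9 CPM (23.6 to 28.3) for WT vehicle. This was 1.34-fold lower in WT IL-33 than in WT vehicle (1.14 to 1.57), a smaller difference than that of Ltc4s. Of the UMIs of the 2 genes together, Lta4h made up 2.35% in cKO IL-33 (2.15 to 2.58%), 3.78% in WT IL-33 (3.32 to 4.28%) and 2.15% in WT vehicle (1.96 to 2.35%). An annotated antisense gene overlaps each of Ltc4s (Gm26542) and Alox5ap (Gm19719), other annotated genes overlap Hpgd (Gm45540), Hpgds (Gm17147) and Ptgs1 (Gm43621), and the sources used here do not say whether the counting used strand.

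Counted over all genes, a gene was called past the fold at 10 CPM or more in either library and a CPM ratio of 2 or more. In WT IL-33 against WT vehicle, 6 of the 8 members reached that level. Of these, 5 were lower (Ptgs1, Hpgds, Hpgd, Alox5ap and Ltc4s) and 0 higher, against 10.4% of 8814 genes lower and 11.7% higher. The median log2 ratio of the 6 was -1.25, and that of all genes 0.05. In cKO IL-33 against WT IL-33, 4 of 7 were higher (Ptgs1, Hpgds, Hpgd and Ltc4s) and 0 lower, against 10.9% of 8853 genes higher and 9.85% lower, with a median log2 ratio of 1.13 beside 0.004 for all genes. In cKO IL-33 against WT vehicle, 0 of 7 were past 2-fold in either direction. Of 8495 genes, 0.447% were higher and 0.483% lower there, so a count of 0 is also what most genes gave. The ratios of the 7 ran from 1.09-fold lower in cKO IL-33 for Alox5ap and Ltc4s to 1.29-fold higher for Alox5 (1.05 to 1.58). WT IL-33 enters both of the first comparisons and cKO IL-33 both of the last, so the 3 results are not separate measurements.

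Since the median cell of WT IL-33 was the shallowest, every cell was also thinned to 3000 UMIs, which left out 86 cells of cKO IL-33, 353 of WT IL-33 and 77 of WT vehicle. At that equal depth an Hpgd UMI was present in 53.4% of cKO IL-33 cells, 14.0% of WT IL-33 cells and 50.3% of the WT vehicle cells. For Ptgs1 the shares were 87.9%, 42.9% and 88.6% in the same order of libraries. Those of Hpgds were 84.1% in cKO IL-33, 47.1% in WT IL-33 and 83.6% in WT vehicle. The gap between WT IL-33 and the other libraries thus stood at equal depth for each of these 3. Shares for Alox5ap were 57.1%, 35.9% and 60.4%, and for Ltc4s 92.7%, 66.5% and 94.2%, in cKO IL-33, WT IL-33 and WT vehicle. Alox5, at 4.00%, 2.43% and 2.55%, and Lta4h, at 7.46%, 5.73% and 8.36%, were low in all 3. Ptgs2 UMIs were left in 12 of the 1849 WT IL-33 cells kept (0.649%) and in 0 cells of the others. No cell type that should lack these genes was present to give a background share from free RNA.

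The 5 members past 2-fold in WT IL-33 against WT vehicle were next counted together in each thinned cell, a description since that comparison chose them. The median cell held UMIs of 4 of the 5 in cKO IL-33, 2 in WT IL-33 and 4 in WT vehicle. All 5 were seen in 20.3% of cKO IL-33 cells, 2.65% of WT IL-33 cells and 21.4% of the WT vehicle cells. None of the 5 was seen in 0.192% of cKO IL-33 cells, 8.82% of WT IL-33 cells and 0.114% of the WT vehicle cells. The WT IL-33 cells spread over the whole range, and 10.6% of them still held 4 of the 5.

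**Figure D2:**
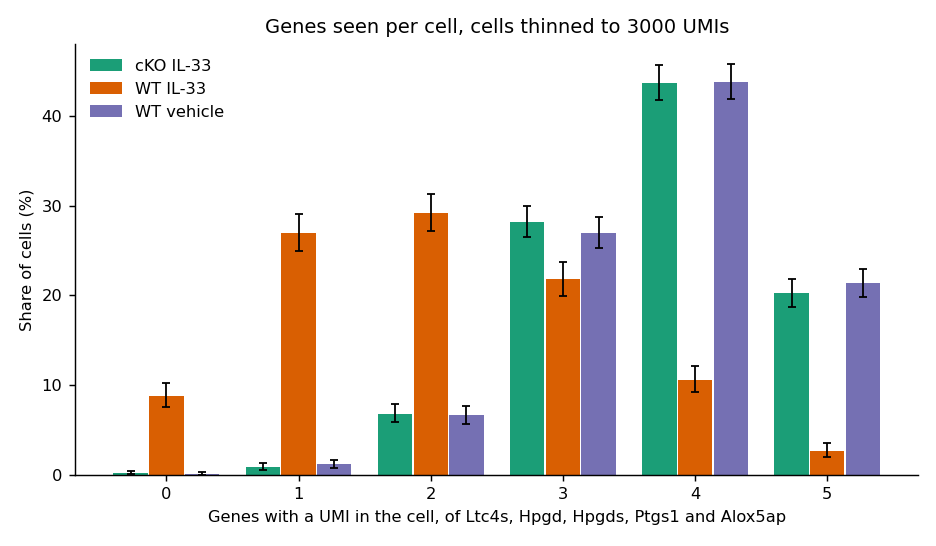
Share of cells (y axis, %) that held UMIs of 0 to 5 of Ltc4s, Hpgd, Hpgds, Ptgs1 and Alox5ap (x axis) after thinning to 3000 UMIs, with exact binomial intervals. The bars of cKO IL-33 and WT vehicle peak at 4 genes, those of WT IL-33 at 2.

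The deposited table assigns each cell to 1 of 6 numbered clusters without names. The authors made the clusters from these cells, so levels by cluster are a description. Cluster 1 held 1815 of the WT IL-33 cells but only 35 of cKO IL-33 and 20 of WT vehicle, so it may be that library rather than a cell type. The remaining WT IL-33 cells were not uniform. Ptgs1 was at 601 CPM (536 to 672) in the 144 WT IL-33 cells of cluster 0 and 721 CPM (644 to 805) in the 102 of cluster 2, against 221 CPM (213 to 231) in cluster 1. Hpgd was at 264 CPM (221 to 312), 304 CPM (255 to 361) and 48.4 CPM (44.3 to 52.8) in WT IL-33 cells of clusters 0, 2 and 1. In cluster 2 the interval of WT IL-33 spans the 298 CPM (283 to 314) of cKO IL-33 and the 299 CPM (281 to 318) of WT vehicle. Cells of WT IL-33 in clusters 0 and 2 thus lay far nearer to the other libraries than those of cluster 1 did.

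Clusters 0 and 2 were then pooled, which held 246 cells of WT IL-33 and 1842 of WT vehicle. For Hpgds, WT IL-33 had 682 CPM (631 to 737) and WT vehicle 709.98 CPM (695 to 725). For Alox5ap, WT IL-33 had 300.2 CPM (266 to 337) and WT vehicle 343 CPM (333 to 354). Both were lower in WT IL-33 by amounts within overlapping intervals, although within cluster 0 alone Hpgds was 1.15-fold lower in WT IL-33 (1.02 to 1.30). Ltc4s was lower beyond its intervals, at 980.5 CPM (919 to 1045) in WT IL-33 against 1288 CPM (1267 to 1309) in WT vehicle, as did Ptgs1, at 656 CPM (606 to 710) in WT IL-33 against 805 CPM (789 to 821) in WT vehicle. In clusters 3 and 5, by contrast, WT IL-33 cells were low. The 67 WT IL-33 cells of cluster 3 had 308 CPM of Ptgs1 (246 to 381), against 699 CPM (672 to 727) in WT vehicle, and the 59 of cluster 5 had 248 CPM (198 to 307), against 752 CPM (689 to 820) in WT vehicle.

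Lta4h did not follow this pattern. WT IL-33 had 20.1 CPM (17.4 to 23.0) of it in cluster 1 and 10.5 CPM (5.03 to 19.3) in clusters 0 and 2, where WT vehicle had 26.2 CPM (23.4 to 29.3). The WT IL-33 value in clusters 0 and 2 is thus the low one, although with intervals that overlap those of cluster 1. Across clusters in the other libraries, Ltc4s was lowest in cluster 4, where cKO IL-33 had 668 CPM (617 to 722) and WT vehicle 793 CPM (756 to 832). Hpgds peaked in cluster 2 of all 3 libraries, at 886 CPM (860 to 913) for cKO IL-33 and 838 CPM (754 to 928) for WT IL-33, against 895 CPM (863 to 927) for WT vehicle.

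**Figure D3:**
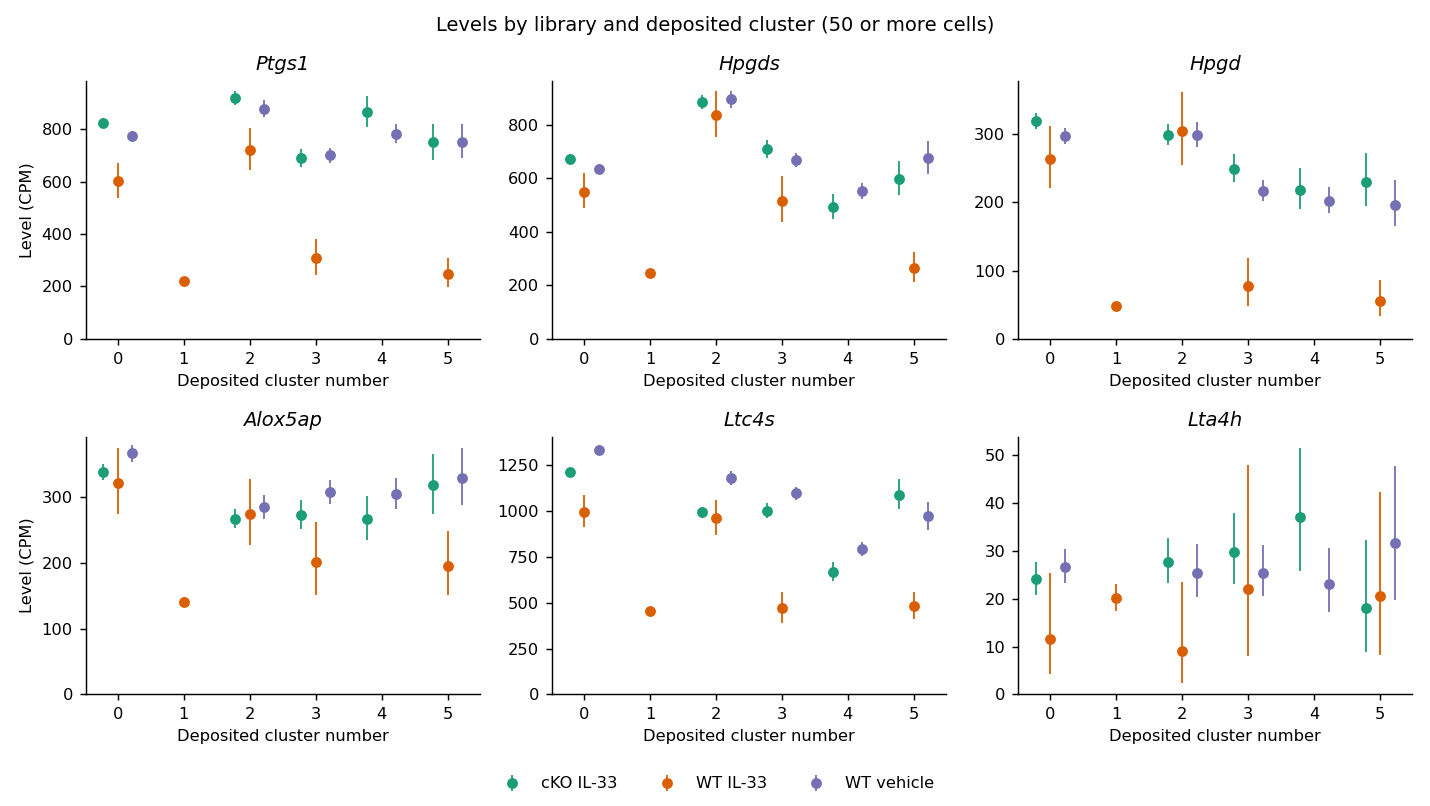
Levels in CPM (y axes from 0) of 6 genes by deposited cluster (x axes), for clusters with 50 or more cells of a library, with exact Poisson intervals as bars. WT IL-33 lies near the other libraries in clusters 0 and 2 and below them in clusters 3 and 5 for Ptgs1 and Hpgd, and cluster 1 has enough cells in WT IL-33 alone.

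The libraries differ in sex, so WT IL-33 was also set against WT vehicle on male-called cells, and cKO IL-33 against WT IL-33 on cells called female that held no Y-linked UMI. No such match was made for cKO IL-33 against WT vehicle, with 39 male-called cells in the first and 8 female-called in the second. Sex, genotype and injection differ together there and cannot be told apart. In male-called cells the Ptgs1 level of WT IL-33 was 199 CPM (187 to 212), that of WT vehicle 779.9 CPM (767 to 793), and the same 5 members were lower by 2-fold or more. In female-called cells the Ptgs1 level of cKO IL-33 was 834 CPM (820 to 848), that of WT IL-33 295 CPM (279 to 313), with 3 members higher by 2-fold or more in place of 4. Ltc4s dropped out there, since cKO IL-33 had 1083 CPM (1067 to 1098) and WT IL-33 561 CPM (538 to 585). Within WT IL-33 the female-called cells were the higher for Ptgs1, Hpgd, Hpgds, Alox5ap and Ltc4s, by less than the differences between libraries. Alox5 was at 9.77 CPM (7.65 to 12.3) in all female-called WT IL-33 cells, 8.80 CPM (6.13 to 12.2) in those without Y-linked UMIs and 3.78 CPM (2.24 to 5.98) in male-called ones. The interval of the male-called cells overlaps neither of the others. Lta4h was at 18.4 CPM in female-called cells without Y-linked UMIs and 18.5 CPM in male-called ones.

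Several other leukocytes are known sources of these enzymes, and their markers were read in the same sums. Of 7 mast cell markers in the table, 5 were at 0 UMIs in every library (Cpa3, Tpsb2, Cma1, Ms4a2 and Fcer1a), and the list summed to 0.172 CPM in cKO IL-33, 3.13 CPM in WT IL-33 and 0.164 CPM in WT vehicle. That sum was Hdc (3, 34 and 2 UMIs in the same order) and Kit (0, 4 and 1 UMIs), both highest in WT IL-33. Of 6 basophil markers, 5 were at 0 in every library and the other had 1 UMI. Of 8 neutrophil markers, 4 were at 0 and 7 under 1 CPM in every library, and the sums of 148 CPM in cKO IL-33, 138 CPM in WT IL-33 and 107 CPM in WT vehicle were nearly all Csf3r. Of 6 platelet markers, 1 was at 0 and 3 under 1 CPM in every library, with sums of 55.7 CPM in cKO IL-33, 40.7 CPM in WT IL-33 and 34.0 CPM in WT vehicle. The summed level of 8 border-associated macrophage markers was also lowest in WT IL-33, at 90.5 CPM in cKO IL-33, 13.03 CPM in WT IL-33 and 78.7 CPM in WT vehicle, most of it Mrc1 (49.4, 7.59 and 53.4 CPM), while Cd209f was highest there (7, 14 and 3 UMIs). Without the 15 cKO IL-33, 3 WT IL-33 and 16 WT vehicle cells that held 3 or more of them, 5, 4 and 0 members were past 2-fold in the 3 comparisons, the counts over all cells. Other leukocyte lists with their lowest sum in WT IL-33 were those of natural killer and innate lymphoid cells (208 CPM in cKO IL-33, 34.4 CPM in WT IL-33 and 142 CPM in WT vehicle, nearly all of it Il7r, with the other 6 of 7 markers under 1 CPM in every library), eosinophils (53.0, 23.1 and 49.0 CPM in the same order, nearly all of it Siglecf, with the other 2 of 3 under 1 CPM), monocytes (35.1, 19.5 and 59.2 CPM), dendritic cells (1787, 1184 and 1753 CPM) and T cells (1.32, 0.165 and 0.219 CPM, all 7 markers under 1 CPM). The monocyte sum was mostly Plac8 in cKO IL-33 and WT vehicle (29.0, 6.35 and 54.5 CPM), while Vcan (0.972, 6.18 and 0.547 CPM) and Treml4 (0, 2.89 and 0.219 CPM) were highest in WT IL-33. Most of the dendritic sum was Siglech (1771, 895 and 1738 CPM), which is also on the microglial list, while Ccr7 (0.229, 273 and 0 CPM), Zbtb46 (4.35, 8.08 and 3.01 CPM), Flt3 (1.37, 2.47 and 1.20 CPM) and Xcr1 (0.515, 2.23 and 0.602 CPM) were highest in WT IL-33. Their part in the members' differences was not tested beyond the leave-out that follows. With the 26 cKO IL-33, 98 WT IL-33 and 21 WT vehicle cells that held 3 or more markers of another leukocyte class left out, the counts were again 5, 4 and 0, as they were with totals that leave out mitochondrial and ribosomal genes.

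Around the 8 members, a list of 64 further genes of the pathway was read, of which 56 are in the table. In WT IL-33 against WT vehicle, 24 of them reached 10 CPM, and 7 were higher, 6 lower and 11 in between, with a median log2 ratio of -0.18. Over all genes 11.7% were higher and 10.4% lower, so a larger share of this list than of all genes was past 2-fold in both directions. The list was drawn up with earlier results of these data known, so that larger share is a description only. In cKO IL-33 against WT IL-33, 5 of 23 were higher and 7 lower, against 10.9% and 9.85% of all genes. In cKO IL-33 against WT vehicle 0 of 19 were past 2-fold, where 0.447% of all genes were higher and 0.483% lower.

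Among the genes that supply arachidonic acid, Pla2g4a, the cytosolic phospholipase A2 that cuts it from membrane phospholipids, was at 75.5 CPM in cKO IL-33, 66.1 CPM in WT IL-33 and 74.4 CPM in WT vehicle. Its WT IL-33 level was 1.13-fold lower than that of WT vehicle (1.03 to 1.23), a small difference beside those of the 5 members past 2-fold. By cluster it was not uniform. WT IL-33 had 62.2 CPM (57.5 to 67.2) of Pla2g4a in cluster 1 and 109 CPM (89.2 to 132) in clusters 0 and 2. In clusters 0 and 2 WT vehicle had less, at 75.0 CPM (70.1 to 80.1). Mgll, monoacylglycerol lipase, which frees arachidonic acid from the endocannabinoid 2-arachidonoylglycerol, was at 114 CPM in cKO IL-33, 323 CPM in WT IL-33 and 103 CPM in WT vehicle. It was 3.15-fold higher in WT IL-33 than in WT vehicle (2.98 to 3.33), and 2.82-fold lower in cKO IL-33 than in WT IL-33 (2.67 to 2.98). Pla2g15, a lysosomal phospholipase, was at 150.3 CPM in cKO IL-33, 88.2 CPM in WT IL-33 and 117 CPM in WT vehicle, within 2-fold. The 4 genes that put arachidonic acid back into phospholipids (Acsl4, Acsl3, Mboat7 and Lpcat3) all stayed within 2-fold.

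The synthases downstream of prostaglandin H2 split. Ptges, the inducible microsomal synthase of prostaglandin E2, had 1 UMI in cKO IL-33, 402 in WT IL-33 (33.1 CPM, in 218 cells) and 2 in WT vehicle. The ratio of WT IL-33 to WT vehicle was 303 (83.3 to 2509). Of the UMIs of Ptges and Hpgds together, whose products make prostaglandins E2 and D2 from the same substrate, Ptges accounted for 0.00788% in cKO IL-33, 10.3% in WT IL-33 (9.39 to 11.3%) and 0.0161% in WT vehicle. UMIs of 2 genes are not equally efficient measures, so that share is read between libraries and not as a ratio of enzymes. Ptges2, a second synthase of the same product, was at 7.78 CPM in cKO IL-33, 19.7 CPM in WT IL-33 and 7.06 CPM in WT vehicle. Tbxas1, thromboxane synthase, lay on the other side, at 178 CPM in cKO IL-33, 78.8 CPM in WT IL-33 and 159 CPM in WT vehicle. It was 2.02-fold lower in WT IL-33 than in WT vehicle (1.87 to 2.17). Its share of the UMIs of Tbxas1 and Hpgds was 19.7% in cKO IL-33, 21.5% in WT IL-33 and 18.9% in WT vehicle, so these 2 differed nearly in step. The others of this step (Ptges3, Cbr1, Akr1b3 and Prxl2b) were within 2-fold in all 3 comparisons.

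Of the 8 prostanoid receptor genes in the table, the 2 that reached 10 CPM were both higher in WT IL-33 than in WT vehicle by 2-fold or more. Over all genes 11.7% were higher and 10.4% lower in that comparison, and 2 genes are too few to describe the receptors. Ptger4, the EP4 receptor of prostaglandin E2, was at 2.69 CPM in cKO IL-33, 45.2 CPM in WT IL-33 and 1.31 CPM in WT vehicle. That is 34.4-fold higher in WT IL-33 than in WT vehicle (22.9 to 54.2). Ptger3, the EP3 receptor of the same ligand, was at 10.2 CPM in cKO IL-33, 68.2 CPM in WT IL-33 and 11.1 CPM in WT vehicle, or 6.14-fold higher in WT IL-33 than in WT vehicle (5.26 to 7.19). Abcc4, an exporter of prostaglandins, was at 3.15 CPM in cKO IL-33, 15.7 CPM in WT IL-33 and 2.35 CPM in WT vehicle. Ptger1, the EP1 receptor of prostaglandin E2, was under 10 CPM and lowest in WT IL-33, at 5.09 CPM in cKO IL-33, 2.89 CPM in WT IL-33 and 4.71 CPM in WT vehicle, so the receptors of this ligand did not all differ in one direction. Ptgr1, a reductase that inactivates prostaglandins and leukotriene B4, was at 8.29 CPM in cKO IL-33, 3.96 CPM in WT IL-33 and 10.02 CPM in WT vehicle. Ptgr2, a related reductase, was at 42.0 CPM in cKO IL-33, 25.6 CPM in WT IL-33 and 37.7 CPM in WT vehicle, within 2-fold.

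On the leukotriene side, 3 of the 4 processing genes at 10 CPM were lower in WT IL-33 than in WT vehicle by 2-fold or more, and 1 was higher, beside 10.4% and 11.7% of all genes and too few genes to describe the branch. Ggt5, which turns leukotriene C4 into leukotriene D4, was at 47.5 CPM in cKO IL-33, 16.9 CPM in WT IL-33 and 41.0 CPM in WT vehicle. Cotl1, whose product binds 5-lipoxygenase in human cells, was at 298 CPM in cKO IL-33, 148 CPM in WT IL-33 and 365 CPM in WT vehicle. Both were thus low in the library where Ltc4s was low, as was Mgst3, at 11.96, 5.94 and 12.4 CPM in cKO IL-33, WT IL-33 and WT vehicle. Abcc1, the exporter of leukotriene C4, was the exception, at 15.8 CPM in cKO IL-33, 61.1 CPM in WT IL-33 and 17.8 CPM in WT vehicle. Cysltr1, the receptor for the cysteinyl leukotrienes and the only leukotriene receptor gene at 10 CPM, was at 103 CPM in cKO IL-33, 29.2 CPM in WT IL-33 and 85.0 CPM in WT vehicle, 2.91-fold lower in WT IL-33 than in WT vehicle (2.59 to 3.28).

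**Figure D4:**
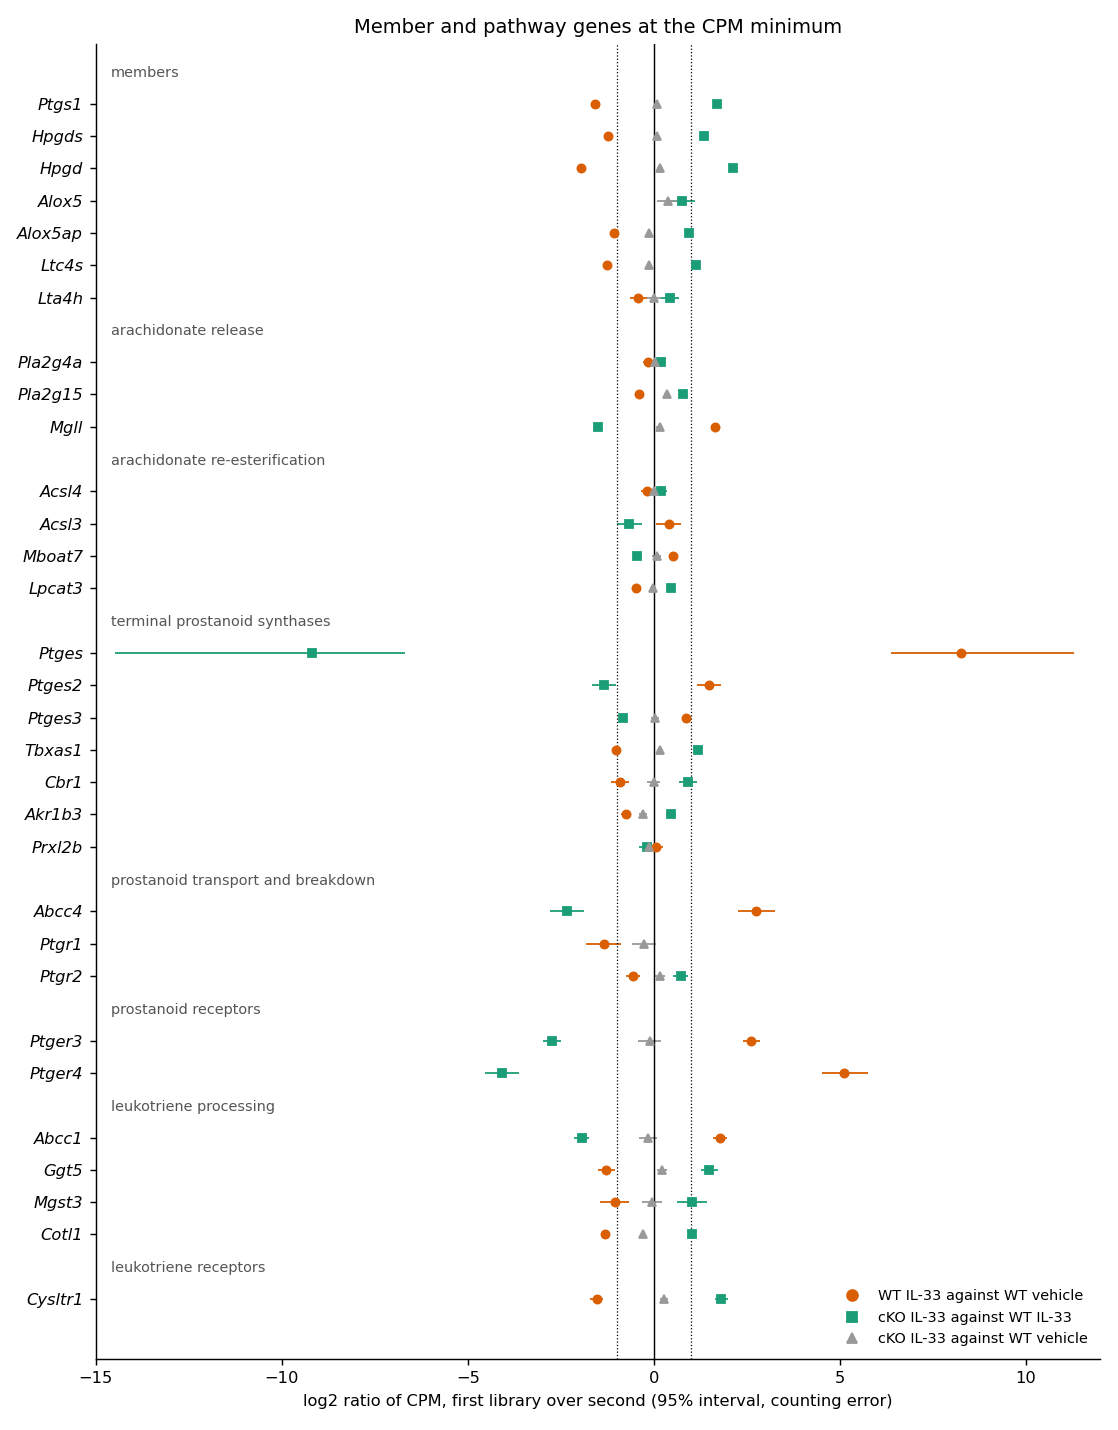
Log2 ratio of CPM, first library over second (x axis), of the members and pathway genes that reached 10 CPM in a library of the pair, with exact intervals, and dotted lines at 2-fold. Ptgs1, Hpgds, Hpgd, Alox5ap and Ltc4s lie left of the lower line in WT IL-33 against WT vehicle, Ptges, Ptger4, Abcc4 and Ptger3 right of the upper one, and no gene passes either line in cKO IL-33 against WT vehicle.

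Within WT IL-33, Ptges, Ptger4 and Ptger3 were higher in cluster 1 than in clusters 0 and 2, as were the members Lta4h and Ptgs2 (4.59 and 0 CPM), and unlike the other 6 members. For Lta4h, Ptgs2 and Alox5 the intervals overlap, for Ptgs2 at 3.38 to 6.08 CPM in cluster 1 and 0 to 3.87 CPM in clusters 0 and 2. Ptgs2 was also at 3.67 CPM (1 UMI) in cluster 3 and 5.85 CPM (2 UMIs) in cluster 5. Ptges was at 37.6 CPM (34.0 to 41.5) in cluster 1 and 5.25 CPM (1.70 to 12.2) in clusters 0 and 2. Ptger4 was at 48.2 CPM (44.0 to 52.5) in cluster 1 and 8.40 CPM (3.63 to 16.5) in clusters 0 and 2, and Ptger3 at 74.3 CPM (69.2 to 79.7) and 25.2 CPM (16.1 to 37.5). In clusters 3 and 5 of WT IL-33, Ptges was below its cluster 1 level. It was at 7.33 CPM (2 UMIs, 0.888 to 26.5) in cluster 3 and 2.92 CPM (1 UMI, 0.0740 to 16.3) in cluster 5. Both intervals span the level of clusters 0 and 2. WT vehicle had 0.279 CPM (1 UMI) of Ptges in cluster 3 and 1.43 CPM (1 UMI) in cluster 5. Ptger4 was at 36.7 CPM (10 UMIs, 17.6 to 67.4) in cluster 3 and 70.1 CPM (24 UMIs, 44.9 to 104) in cluster 5 of WT IL-33. Ptger3 was at 25.7 CPM (7 UMIs, 10.3 to 52.9) and 29.2 CPM (10 UMIs, 14.0 to 53.8) there, near its level in clusters 0 and 2. Cysltr1 and Tbxas1 were lower in cluster 1, at 23.7 CPM (20.8 to 26.8) and 72.3 CPM (67.3 to 77.7) in cluster 1 but 78.7 CPM (61.9 to 98.7) and 146 CPM (123 to 172) in clusters 0 and 2.

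Likeness of pattern was measured as Pearson's r of log2(CPM + 1) over the 15 sums of a library and a cluster with 50 or more cells, among 5328 genes at 50 CPM or more in at least 1 sum. The sums share libraries, cells of 1 clustering and depth, so r is a description. Hpgd was most like Gpr34 (r = 0.990), Glul (0.980) and Ulk2 (0.980). Gpr34 was at 1431 CPM in cKO IL-33, 356 CPM in WT IL-33 and 1177 CPM in WT vehicle. Ptgs1 was most like Commd8 (0.984), Ankrd44 (0.982) and Golm1 (0.979), and near Hpgds stood Mef2a (0.972) and Stard9 (0.971). For Ltc4s the nearest genes were Mfng (0.951), Ypel3 (0.947) and Daglb (0.947), and for Alox5ap they were Rgs10 (0.943), Myl12b (0.940) and Cox7a2l (0.923). Each of these named neighbours was lower in WT IL-33 than in the other libraries. The 2 sparse members had looser neighbours, Ankra2 (0.879), Cebpg (0.849) and Galnt2 (0.847) for Alox5 and Cetn2 (0.859), Mir142hg (0.826) and Acly (0.809) for Lta4h.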

How the data were processed

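Single-cell RNA-seq (10x Chromium Chip G, V3.1, per the labels) gave 1 library per group. The deposited table holds raw UMI counts, and a second deposited table gives each cell's library, sex call, cluster, phase and mitochondrial and ribosomal percent by the authors, per the file headers. Cell Ranger 5.0, Seurat 4.0.1 and the build GRCm38 (mm10) are named in the submitters' processing notes, with no roles. The sources used here do not give the cell filter or doublet handling. No doublet caller was run.

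Counts of all deposited cells were summed per library and scaled to CPM (Python 3.11.15, numpy 2.4.6, scipy 1.17.1). Intervals are exact at 95%: Poisson for CPM, Clopper-Pearson for shares and, conditionally, for CPM ratios. They cover counting error only. With 1 library per group no p-value was computed. A library at 0 UMIs was set to 3 counts for a bound. A gene was past the fold at 10 CPM or more in either library and a ratio of 2 or more. The steps were tested on simulated Poisson sums.

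All 8 members are named, as are wider-list genes that reached 10 CPM in 1 or more libraries, and the 3 genes most like each member that did, of which 1 is not reported here. Members and lists were chosen with earlier results of these data known. Promoter windows are RefSeq's, and positions GENCODE's. Alternatives changed the minimum, the fold, the scaling, the cells summed and the depth of thinning. The added alternative without cells of border-associated macrophage markers was chosen after seeing the data.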

Additional observations from a re-analysis of the deposited data

How the results depend on the processing

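No paired analysis was possible because each group has 1 library. Under the alternatives of minimum, fold, scaling, depth and cells, the count of members past 2-fold was 5 to 6 in WT IL-33 against WT vehicle, 3 to 6 in cKO IL-33 against WT IL-33 and 0 in cKO IL-33 against WT vehicle. The wider list moved with the minimum level: in WT IL-33 against WT vehicle 13 of its genes were past 2-fold at 10 CPM, 6 at 50 CPM and 23 with no minimum, in cKO IL-33 against WT IL-33 12, 6 and 25, and in cKO IL-33 against WT vehicle 8 with no minimum beside 0 at 10 CPM. The share of all genes was taken only over all cells at 10 CPM and 2-fold, so the counts under the alternatives have no such share beside them. With no minimum, genes with a few UMIs enter, some with intervals that include a ratio of 1 and others with intervals that do not. Within deposited cluster 2 the sign of the Hpgd log2 ratio turned, to 0.027 in WT IL-33 against WT vehicle (-1.97 over all cells) and -0.029 in cKO IL-33 against WT IL-33 (2.12 over all cells), and both intervals there include no difference. Uncalled values also turned within clusters, each with an interval that includes no difference: in WT IL-33 against WT vehicle Alox5 (0.26, 0.18 and 0.028 in clusters 0, 2 and 5, -0.38 over all cells), and in cKO IL-33 against WT IL-33 Alox5ap (-0.036 in cluster 2, 0.95 over all cells), Alox5 (-0.14 in cluster 0, 0.74 over all cells) and Lta4h (-0.19 in cluster 5, 0.43 over all cells). In cKO IL-33 against WT vehicle, Ltc4s (0.17 in cluster 5, -0.12 over all cells) and Hpgds (-0.16 in cluster 4, 0.09 over all cells) turned, with intervals that do not include a ratio of 1. The cause was not tested. Over all alternatives that kept the clusters together, the log2 ratio in WT IL-33 against WT vehicle ran from -1.97 to -1.57 for Ptgs1, -2.25 to -1.95 for Hpgd and -1.33 to -0.09 for Alox5, lowest in male-called cells. Median-of-ratios scaling shifted ratios by at most 0.05 in size. Low counts limit the cluster values of Alox5 and Lta4h, with 6 and 4 UMIs in cluster 2 of WT IL-33, and Ptgs2 rests on 20 cells.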

Other observations

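A few genes of the wider list under 10 CPM also differed, and are named after their values were seen. Pla2g7, which hydrolyses platelet-activating factor, had 116 UMIs in cKO IL-33 (6.64 CPM), 12 in WT IL-33 (0.990 CPM) and 103 in WT vehicle (5.64 CPM). Cbr3, a carbonyl reductase, was at 9.21 CPM in cKO IL-33, 2.64 CPM in WT IL-33 and 7.39 CPM in WT vehicle. Fpr2, a formyl peptide receptor that also binds lipid mediators, had 1 UMI in cKO IL-33, 19 in WT IL-33 and 1 in WT vehicle. The leukotriene B4 receptor gene Ltb4r1 had 9 UMIs in cKO IL-33, 0 in WT IL-33 and 9 in WT vehicle.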
